A study of Rattus norvegicus with 6 samples.

Results

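The miR-200 family is a set of related miRNAs made from a pair of gene clusters, and all names of the family in a deposited table of miRNA read counts are described here. The rule took every row named rno-miR-200a, rno-miR-200b, rno-miR-200c, rno-miR-141 or rno-miR-429, with both arms of each precursor where listed, which gave 9 of the 910 names in the table. Of these, 5 came from the miR-200b/miR-200a/miR-429 cluster and 4 from the miR-200c/miR-141 cluster. Small RNA was sequenced from the lens capsular membrane (labelled lens capsules) of Sprague Dawley rat pups, with 3 libraries in the control group (titled WT), injected under the skin with saline, and 3 in the Na2SeO3 group (titled Model), injected with sodium selenite at 20 μmol/kg. Injections were given on days 3, 5, and 7, the methods describe the pups as 8 days old when the model was set up, and the lens was taken on day 15. RNA was taken from 6 lenses, from 3 rats in each group. The question is whether the family, and each of its clusters, stood at another level in the capsular membrane of selenite-injected pups than in that of saline-injected pups.

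The miR-200 family is best known from epithelial cells, where its members repress the transcription factors Zeb1 and Zeb2, and these factors in turn repress both clusters. Low levels of the family accompany epithelial-mesenchymal transition, a change of cell state that lens epithelial cells undergo in some forms of lens opacity. A miRNA pairs with its target mRNA mainly through its seed, bases 2 to 8 from the 5′ end. The 3p arms of miR-200b, miR-200c, and miR-429 share a seed, the 3p arms of miR-200a and miR-141 share another, and each cluster thus encodes both seeds.

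In the RefSeq table of rat miRNAs (build GRCr8), 6 of the 9 names had a mature sequence. They are printed to show how the clusters and the arms compare, 5′ to 3′, with the seed in capitals.
rno-miR-200c-3p: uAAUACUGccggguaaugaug
rno-miR-141-3p: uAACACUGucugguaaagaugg
rno-miR-200a-5p: cAUCUUACcggacagugcugg
rno-miR-200b-5p: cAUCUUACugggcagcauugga
rno-miR-200c-5p: cGUCUUACccagcaguguuug
rno-miR-141-5p: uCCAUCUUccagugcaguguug
The seeds of miR-200c-3p and miR-141-3p differ by 1 base, U4C, counted from 1 at the 5′ end of miR-200c-3p. Over their first 21 bases these 3p arms differ at 4 positions. The 5p arms of miR-200a and miR-200b have the same seed, which no other of the 724 mature rat sequences in that table carried, and they differ at 5 of 21 positions. The 5p arm of miR-200c departs from that seed by A2G.

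On GRCr8, miR-200a-5p lies at chr5:171930770-171930790 and miR-200b-5p at chr5:171931548-171931569, both on the minus strand. On the minus strand of chromosome 4, miR-200c-3p lies at chr4:159209969-159209989, miR-200c-5p at chr4:159210009-159210029, miR-141-3p at chr4:159209540-159209561, and miR-141-5p at chr4:159209584-159209605. The build behind the count table is not given in the sources used here, so these positions describe the RefSeq sequences and not the table. Mir429, Mir200a, and Mir200b lie within 1908 bases of chromosome 5, inside the span of the protein-coding gene Ttll10, and a predicted long non-coding RNA gene, LOC106182250, overlaps them. Mir141 and Mir200c lie within 509 bases, between the protein-coding genes Phb2 and Ptpn6. The heptamer AAUACUG, the seed of miR-200c-3p, occurs in the sense strand of the Mir200c, Mir200b, and Mir429 hairpins and in that of Mir145, that is in 0.955% of 419 rat hairpins. AACACUG, the seed of miR-141-3p, was found in Mir141, Mir200a, Mir3575, and Mir3587, again 0.955% of the hairpins. RefSeq also lists miRNA genes that overlap Mir200a (Mir3548) and Mir200c (Mir3575), and neither rno-miR-3548 nor rno-miR-3575 had a count in any library.

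The counts of all miRNA names summed to between 1806596 and 2829903 per control library and between 663096 and 968151 per Na2SeO3 library. A miRNA reached 3 counts, taken here as the limit of what a library can show, at 1.04 to 1.94 CPM (a miRNA's count scaled to a common library size, here after TMM scaling) in the control group and at 2.72 to 4.37 CPM in the Na2SeO3 group. These limits, and all binomial intervals, cover counting error only: the reads carry no molecular identifiers and may be copies of one another. Of the raw reads, 25.6% to 39.7% were counted on miRNA names in the control libraries and 11.4% to 13.0% in the Na2SeO3 libraries, so every level below is relative to the other miRNAs of the same library. The lens marker miR-184 averaged 81459 and 37254 CPM, and miR-204-5p, a miRNA of lens and retina, averaged 15242 and 11544 CPM in the control and Na2SeO3 groups. The tissue is a bulk sample, in which fewer cells of a type and less RNA per cell cannot be told apart.

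The family as a whole was less abundant in the Na2SeO3 group. Its 9 names together held 6782, 4997, and 4457 reads in control libraries 1 to 3 and 782, 1170, and 953 reads in Na2SeO3 libraries 1 to 3. After TMM scaling, which takes the bulk of miRNAs as unchanged between libraries, the summed level was 2343, 2585, and 2884 CPM in the control group. In the Na2SeO3 group it was 1139, 1062, and 1048 CPM. The means were 2604 ± 271 CPM and 1083 ± 48.7 CPM (SD, n = 3 each), a difference of -1.26 on the log2 scale (exact permutation test, two-sided, p = 0.1, which is as low as 3 against 3 libraries can go). As a share of all counts the family took 0.240% to 0.247% in the control libraries and 0.109% to 0.121% in the Na2SeO3 libraries. The groups did not overlap on either scale.

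The members differed in level by orders of magnitude. Mature miRNAs are close to each other in length, 21 or 22 bases in the sequences above, so CPM values can be set side by side, although ligation and amplification can favour some sequences over others. In both groups the order was miR-200b-3p, miR-200a-3p, miR-200c-3p, miR-200a-5p, miR-429, miR-141-3p, miR-200b-5p, miR-141-5p, and miR-200c-5p. The ranges of miR-200a-5p and miR-429 overlapped in each group, and so did those of miR-200b-5p and miR-141-5p. The ranges of miR-141-3p and miR-200b-5p also overlapped in the Na2SeO3 group. Except for miR-141-5p and miR-200c-5p in the Na2SeO3 group, all other neighbours in that order were apart in both groups. Those names had 1 to 3 reads and 0 reads per Na2SeO3 library, at or below the limit of 3 counts. By mean CPM over the libraries of both groups together, miR-200b-3p ranked 55th and miR-141-3p 329th among the 341 miRNAs tested.

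**Figure D1:**
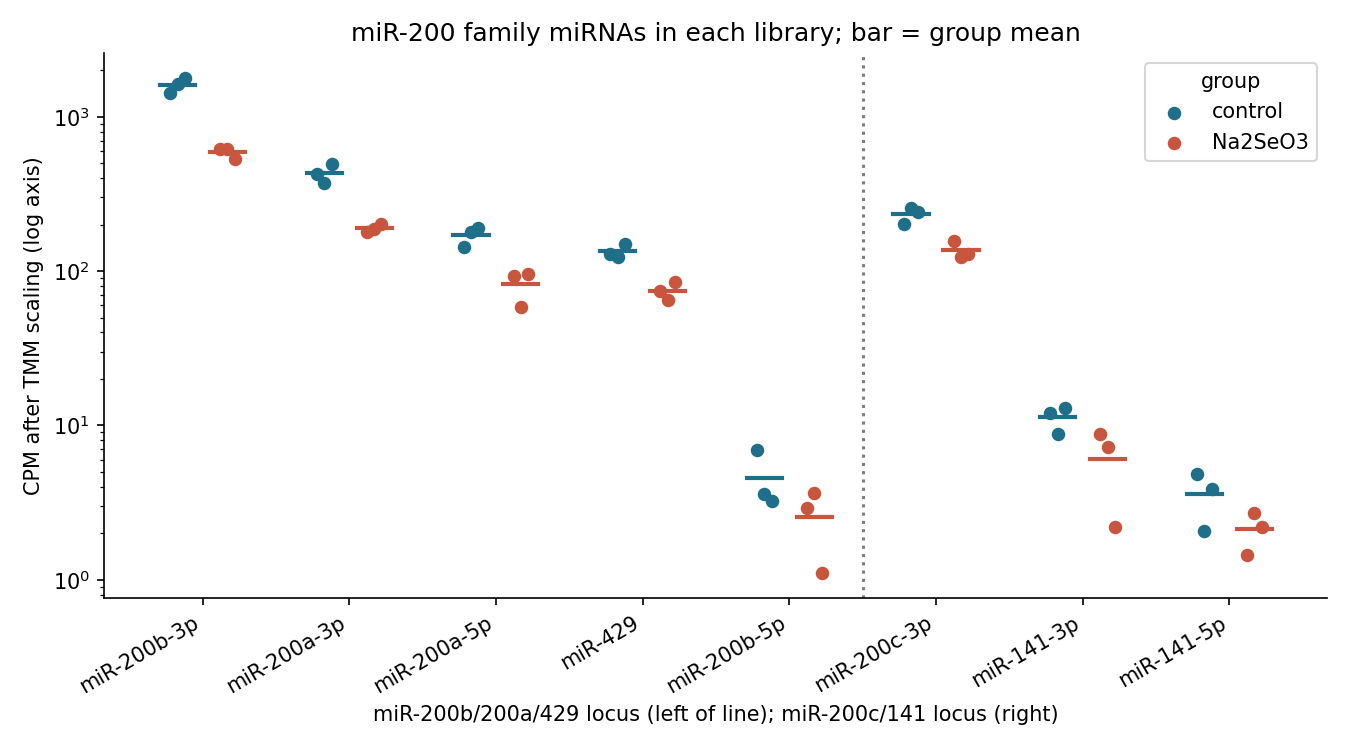
CPM after TMM scaling (log axis) of 8 family members in each of the 3 control and 3 Na2SeO3 libraries, with a bar at the group mean; miR-200c-5p, counted once in all, is not drawn. The Na2SeO3 points lie below the control points for every member above 10 CPM in the control group, and the gap is widest for miR-200b-3p, from a mean of 1613 to 590 CPM.

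Of the 9 members, 6 had enough reads for the filter (at least 10 counts, scaled to library size, in 3 libraries), and 5 of these 6 were called by edgeR at an adjusted p below 0.05, each of them lower in the Na2SeO3 group. Over all 341 miRNAs tested, 13.8% passed in that direction. With an absolute log2 fold change above 1 also required, which defines a DEmiRNA, 3 members were down-regulated DEmiRNAs, against 4.99% of all miRNAs tested. None rose. The CPM values of the groups did not overlap for the 5 members called, whereas 21.1% of all miRNAs tested were apart in that direction and 25.2% in the other. The sixth member tested, miR-141-3p, passed the filter through its control counts, and its groups were apart after TMM scaling and overlapped when scaled by library size only. Over all miRNAs tested the median log2 fold change was 0.08.

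From the miR-200b/miR-200a/miR-429 cluster, miR-200b-3p was the most abundant member and had the largest fall. It stood at 1416, 1636, and 1787 CPM in control libraries 1 to 3 and at 622, 615, and 531 CPM in Na2SeO3 libraries 1 to 3. The lowest control library was thus well above the highest Na2SeO3 library. The log2 fold change was -1.45 (standard error 0.16, adjusted p = 3.48e-05, edgeR), so that the fitted level in the Na2SeO3 group was 36.5% of the control level, and only 5 of the 341 miRNAs tested had a lower log2 fold change. Its 5p arm was hardly counted, with 20, 7, and 5 reads in the control libraries and 2, 4, and 1 in the Na2SeO3 libraries, and did not pass the filter.

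Both arms of miR-200a were abundant enough to be measured. The 3p arm stood at 428, 374, and 495 CPM in the control group and at 179, 186, and 201 CPM in the Na2SeO3 group, without overlap. Its log2 fold change was -1.19 (standard error 0.17, adjusted p = 1.53e-04, edgeR). For the 5p arm the values were 143, 178, and 190 CPM in the control group and 93.2, 58.1, and 95.7 CPM in the Na2SeO3 group. These did not overlap either, and the log2 fold change was -1.06 (standard error 0.22, adjusted p = 0.0027, edgeR). It reached -0.84 without Na2SeO3 library 2 and -0.97 without control library 3, which is short of the fold change threshold, and its adjusted p stayed at or below 0.0311 with each library left out.

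The smallest fall among the members of this cluster that were tested was that of miR-429. It was counted at 130, 123, and 149 CPM in the control group and at 74.3, 65.4, and 84.7 CPM in the Na2SeO3 group. The groups were again apart. At -0.84 on the log2 scale, with a standard error of 0.19 (edgeR, adjusted p = 0.0044), miR-429 passed the test and was no DEmiRNA.

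The miR-200c/miR-141 cluster was represented almost entirely by miR-200c-3p. It stood at 203, 258, and 243 CPM in the control group and at 157, 123, and 130 CPM in the Na2SeO3 group, without overlap. The log2 fold change was -0.78 (standard error 0.18, adjusted p = 0.0051, edgeR), which passed the test and not the fold change threshold. Its 5p arm was counted 1 time, in control library 1, and 3 counts in the smallest control library would have been 1.94 CPM.

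Reads of miR-141 were few. The 3p arm was counted 35, 17, and 20 times in the control libraries and 6, 8, and 2 times in the Na2SeO3 libraries, and it passed the filter through its control counts. The CPM values were 8.79 to 12.9 in the control group and 2.20 to 8.74 in the Na2SeO3 group, so the groups were barely apart. The log2 fold change was -0.91 with a standard error of 0.47, and it did not pass (adjusted p = 0.155, edgeR). Without Na2SeO3 library 3 it was -0.52, and without control library 1 or control library 3 miR-141-3p no longer passed the filter and was not tested. The 5p arm, with 4 to 14 reads per control library and 1 to 3 per Na2SeO3 library, did not pass the filter. With no filter its log2 fold change was -0.81 (standard error 0.79, edgeR, adjusted p = 0.550).

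**Figure D2:**
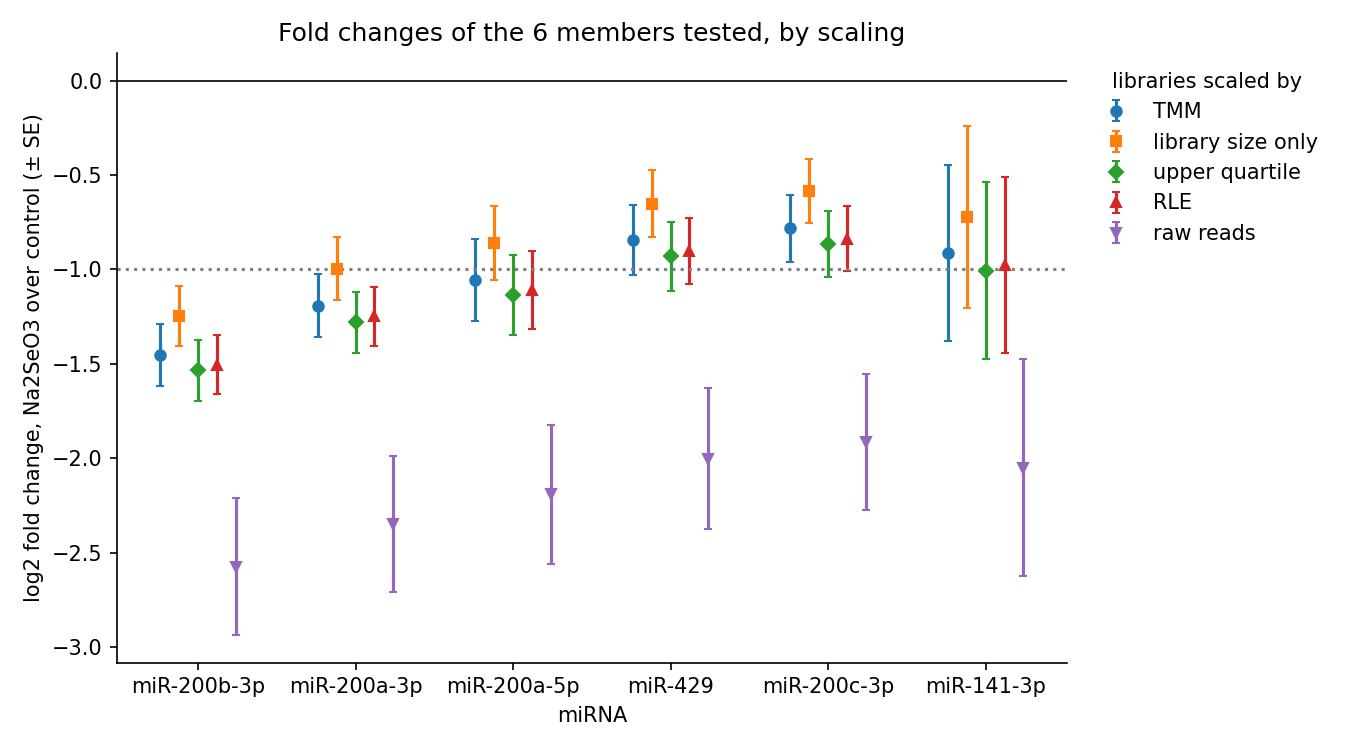
Log2 fold change (Na2SeO3 over control, with its standard error, n = 3 libraries per group) of the 6 members tested, under 5 ways of scaling the libraries; the dotted line marks -1. Every point lies below 0, and the order of miR-200b-3p, miR-200a-3p, and miR-200a-5p before miR-429 and miR-200c-3p is the same on each scale, while the size moves from -1.45 under TMM to -2.57 with raw reads for miR-200b-3p.

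The size of the fold changes depended on the scale. With library size only, 1 member, miR-200b-3p at -1.25, was still a DEmiRNA, as were 2.93% of all miRNAs tested in that direction, and miR-200a-3p and miR-200a-5p fell short of the threshold, the latter at -0.86. On that scale 5 members and 8.8% of all miRNAs tested passed as lower. When the libraries were scaled by their raw reads, all 6 members tested passed and were DEmiRNAs, from -1.91 for miR-200c-3p to -2.57 for miR-200b-3p. Among them miR-141-3p had passed the filter through its control counts, so its call is not taken as a result. On the raw-read scale 61% of all miRNAs tested passed as lower, 51.6% were down-regulated DEmiRNAs, and the median over all of them was -1.07. The same 5 members passed, and in the same direction, under the 4 scalings relative to counted miRNAs, which were TMM, library size only, upper quartile, and RLE.

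The share of each cluster in the family differed between the groups. Reads of the miR-200b/miR-200a/miR-429 cluster made up 90.6%, 89.6%, and 91.0% of the family in control libraries 1 to 3, and 85.3%, 87.4%, and 87.2% in Na2SeO3 libraries 1 to 3. The shares did not overlap between the groups. Their 95% Wilson intervals started at 88.7% or higher in the control libraries and ended at 87.6%, 89.2%, and 89.2% in the Na2SeO3 libraries, so only that of Na2SeO3 library 1 was clear of all control intervals. Summed over its members, this cluster went from 2354 ± 253 to 938 ± 29.7 CPM (SD, n = 3 each), and the miR-200c/miR-141 cluster went from 249 ± 25.9 to 145 ± 19.4 CPM (SD, n = 3 each). The log2 ratio of the clusters within a library does not depend on scaling. It averaged 3.24 ± 0.12 in the control group and 2.70 ± 0.14 in the Na2SeO3 group (SD, n = 3 each), a difference of -0.54, and the groups were apart (p = 0.1 by exact permutation test, and 0.3 adjusted over 12 ratios). No ratio could pass with 3 libraries per group.

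**Figure D3:**
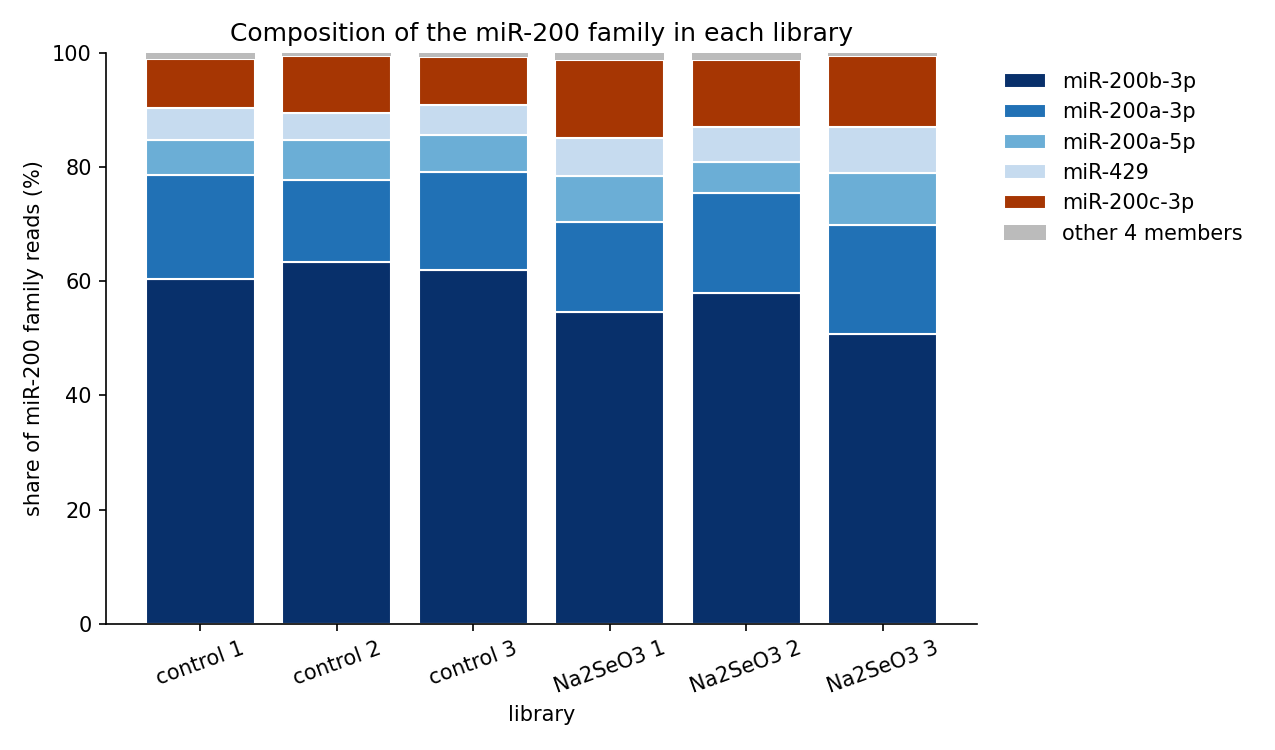
Share of miR-200 family reads (%) taken by each member in each library, with miR-200b-3p, miR-200a-3p, miR-200a-5p, and miR-429 in blue, miR-200c-3p in brown, and the other 4 members, miR-200b-5p among them, in grey. miR-200b-3p takes 60.4% to 63.3% in the control libraries and 50.7% to 57.9% in the Na2SeO3 libraries, and miR-200c-3p takes 8.41% to 9.99% and 11.6% to 13.8%.

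The difference between the clusters was largest for miR-200b-3p and was not detected for miR-429. In a fit across all miRNAs in which each library was scaled by its miR-200c/miR-141 reads, miR-200b-3p was lower in the Na2SeO3 group, at -0.66 on the log2 scale with a standard error of 0.17 (edgeR, adjusted p = 0.0044). On that scale 2.35% of the 341 miRNAs passed in the same direction, while 241 of the 341 passed in either direction. For miR-200a-3p the value was -0.40 (standard error 0.21, adjusted p = 0.0983), and for miR-200a-5p it was -0.26 (standard error 0.23, adjusted p = 0.305), which ranged from -0.46 without Na2SeO3 library 3 to -0.098 without Na2SeO3 library 2. That of miR-429 was -0.05 (standard error 0.23, adjusted p = 0.834), so a difference between miR-429 and the other cluster was not detected. With libraries scaled by the reads of the miR-200b/miR-200a/miR-429 cluster, miR-200c-3p was higher by 0.54 (standard error 0.18, adjusted p = 0.0100, edgeR), on a scale on which 89.7% of all miRNAs tested passed as higher. On the same scale miR-141-3p was at 0.39 (standard error 0.50, adjusted p = 0.466, edgeR), with 0.13 to 0.78 when 1 library was left out and it could be tested, the lowest without Na2SeO3 library 1 and the highest without Na2SeO3 library 3. Both calls, of miR-200b-3p and of miR-200c-3p, held with each library left out in turn, at adjusted p-values up to 0.0255 and 0.0368. These members made up most of the reads of their clusters, so the calls largely compare the same counts and are not independent. Further choices of members were made, the first 3 of them after seeing the data. Without miR-200b-3p in the sum, the log2 ratio of the clusters differed by -0.30 between the groups (exact permutation test, p = 0.2). It differed by -0.61 over the 3p arms with the seed of miR-200b alone (exact permutation test, p = 0.1). The difference was -0.09 over those with the seed of miR-200a alone (exact permutation test, p = 1). When each 3p member was weighted equally it was -0.22 (exact permutation test, p = 0.6). The last 2 values include miR-141-3p, which had 2 reads in Na2SeO3 library 3, below the limit of 3 counts. How far they depend on that library was not tested.

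Ratios between single members differed by pair. In the control group miR-200b-3p was counted 6.98, 6.34, and 7.37 times as often as miR-200c-3p, which has the same seed, and in the Na2SeO3 group 3.95, 4.99, and 4.09 times as often. The log2 ratio fell by 0.67 without overlap (exact permutation test, p = 0.1). Compared with miR-200b-3p from its own cluster, miR-429 gained, from a log2 ratio of -3.59 ± 0.14 to -2.98 ± 0.30 (SD, n = 3 each), and the groups were apart here too (p = 0.1 by exact permutation test). The fit scaled by miR-200b-3p reads, added after seeing the data, put miR-429 at 0.61 on the log2 scale with a standard error of 0.20 (edgeR, adjusted p = 0.0174), where 91.2% of all miRNAs passed as higher. In the same fit miR-200a-3p was at 0.26 (standard error 0.18, adjusted p = 0.187, edgeR) and did not pass. Nor did miR-200a-5p, at 0.41 (standard error 0.24, adjusted p = 0.122, edgeR). With each library left out miR-200a-3p ranged from 0.13 to 0.35. Without Na2SeO3 library 2 miR-200a-5p passed, at 0.65 (adjusted p = 0.0095, edgeR). The call of miR-429 was lost without control library 2 (adjusted p = 0.0662), control library 3 (0.0508), or Na2SeO3 library 3 (0.0593). The log2 ratio of miR-429 to miR-200c-3p, which again share a seed and lie in different clusters, was -0.80 ± 0.23 in the control group and -0.87 ± 0.24 in the Na2SeO3 group (SD, n = 3 each), and the libraries overlapped (exact permutation test, p = 0.9). The log2 ratio of miR-200b-3p to miR-200a-3p, neighbours in the genome, changed by -0.26 with overlapping libraries (exact permutation test, p = 0.2). It changed by -0.14 without Na2SeO3 library 3 and by -0.15 without control library 2.

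**Figure D4:**
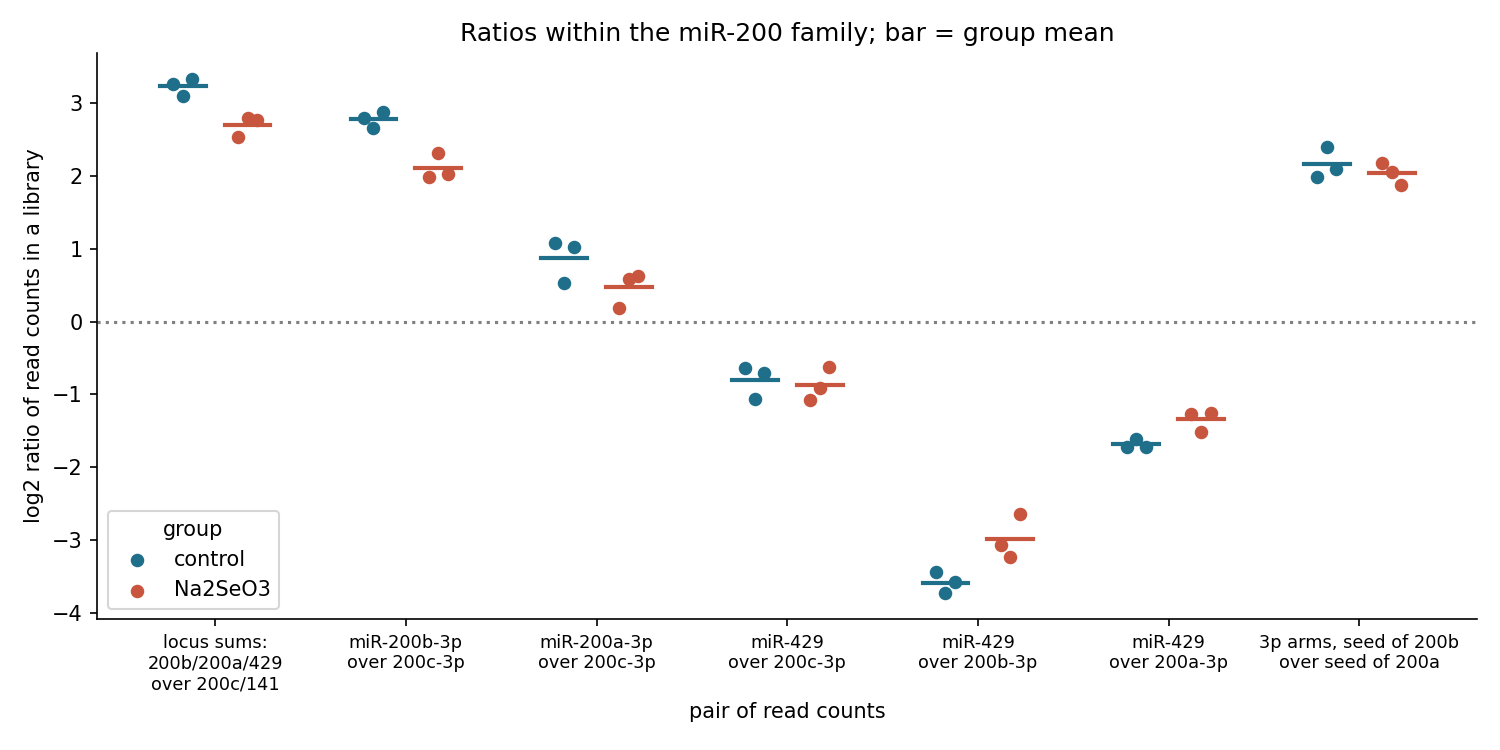
Log2 ratio of read counts within each library for 7 pairs of members or sums, with 3 control and 3 Na2SeO3 libraries per pair and a bar at the group mean. The libraries of the groups lie apart for the locus sums, for miR-200b-3p over miR-200c-3p, and for miR-429 over miR-200b-3p and over miR-200a-3p, and they overlap for the other 3 pairs.

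Grouped by seed instead of by cluster, a shift within the family was not detected. The 3p arms with the seed AAUACUG, of miR-200b, miR-200c, and miR-429, summed to 1748, 2018, and 2180 CPM in the control group and to 853, 804, and 746 CPM in the Na2SeO3 group. Those with the seed AACACUG, of miR-200a and miR-141, summed to 440, 383, and 508 CPM in the control group and to 188, 193, and 203 CPM in the Na2SeO3 group. Both sums were lower in every Na2SeO3 library than in any control library, by -1.30 and -1.18 on the log2 scale. The log2 ratio of the seed groups was 2.16 ± 0.21 in the control group and 2.04 ± 0.16 in the Na2SeO3 group (SD, n = 3 each), a difference of -0.12 with overlapping libraries (two-sided exact permutation test, p = 0.5). This difference ranged from -0.21 without control library 1 to -0.0082 without control library 2. Weighting each member equally turned the sign of this difference, to 0.12 (exact permutation test, p = 0.9). That weighting counts miR-141-3p, with 2 reads in Na2SeO3 library 3, as much as the abundant members. How far the sign depends on that library was not tested.

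The arms of a precursor were kept in very different proportion. For Mir200a the 5p arm made up 25.0%, 32.2%, and 27.7% of the reads in control libraries 1 to 3 and 34.2%, 23.8%, and 32.2% in Na2SeO3 libraries 1 to 3. The groups overlapped, and the log2 ratio of 3p to 5p changed by -0.12 (exact permutation test, p = 0.7). For Mir200b the 5p arm, which has the seed of miR-200a-5p, made up 0.181% to 0.587% of the reads, and for Mir200c it was 0 of 108 to 499 reads in 5 of 6 libraries. In the Na2SeO3 library with 108 reads the 95% Wilson interval reaches 3.43%. Only names ending in 5p and 3p were listed for these precursors, and rno-miR-429 was listed without an arm.

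How the authors' counting divided reads between members with close sequences was not tested, and a read that fits more than 1 of them may have been counted under either name.

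Other miRNAs known from epithelia did not all move with the family. A list of 29 such names, those of miR-203a, miR-203b, miR-205, the miR-182/miR-183/miR-96 cluster, miR-184, miR-31a, miR-375, miR-192, miR-194, miR-148a, and the miR-34 and miR-449 families, held 16 that were tested. Of these, 7 passed as lower in the Na2SeO3 group, 0 as higher, and 9 did not pass, where 13.8% of all miRNAs tested passed as lower and 20.8% as higher, with a median log2 fold change of -0.36 against 0.08 for all miRNAs tested. The summed level of the list was 413327 to 547453 CPM in the control libraries and 355819 to 426500 CPM in the Na2SeO3 libraries, which overlap. Its largest part was miR-148a-3p, at 217544 and 165998 CPM on average, which did not pass (adjusted p = 0.0766, edgeR). The lower ones included miR-203a-3p, a miRNA of differentiating surface epithelium, which went from 3733 to 1610 CPM (log2 fold change -1.21, adjusted p = 4.86e-05, edgeR). They also included miR-205, which represses Zeb1 and Zeb2 as the miR-200 family does, from 1314 to 688 CPM (log2 fold change -0.93, adjusted p = 0.0012, edgeR), and miR-184 (log2 fold change -1.13, adjusted p = 3.48e-05). In contrast, miR-182, miR-183-5p, and miR-96-5p of the sensory epithelium cluster had log2 fold changes of 0.21, 0.21, and -0.02 and did not pass. In a list of 23 mesenchymal names, 19 were tested, 5 passed as lower and 2, both arms of miR-127, as higher, against the same 13.8% and 20.8% of all miRNAs tested, with a median of -0.25. Its summed level was 66201 to 71913 CPM in the control libraries and 54828 to 58626 CPM in the Na2SeO3 libraries. The list held names of miR-143, miR-145, miR-199a, miR-214, miR-21, miR-10b, miR-22, miR-100, miR-125b, miR-127, and miR-152. The mesenchymal miR-143-3p and miR-145-5p were among the lower ones, at -0.60 and -0.85 (adjusted p = 0.0060 and 0.0015, edgeR). Its largest fall was that of miR-10b-5p, at -1.20. The 12 that did not pass included miR-199a-3p, miR-214-3p, and miR-152-3p, at 0.10, 0.16, and 0.17. They also included miR-100-5p and miR-125b-5p, at -0.25 and -0.30.

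**Figure D5:**
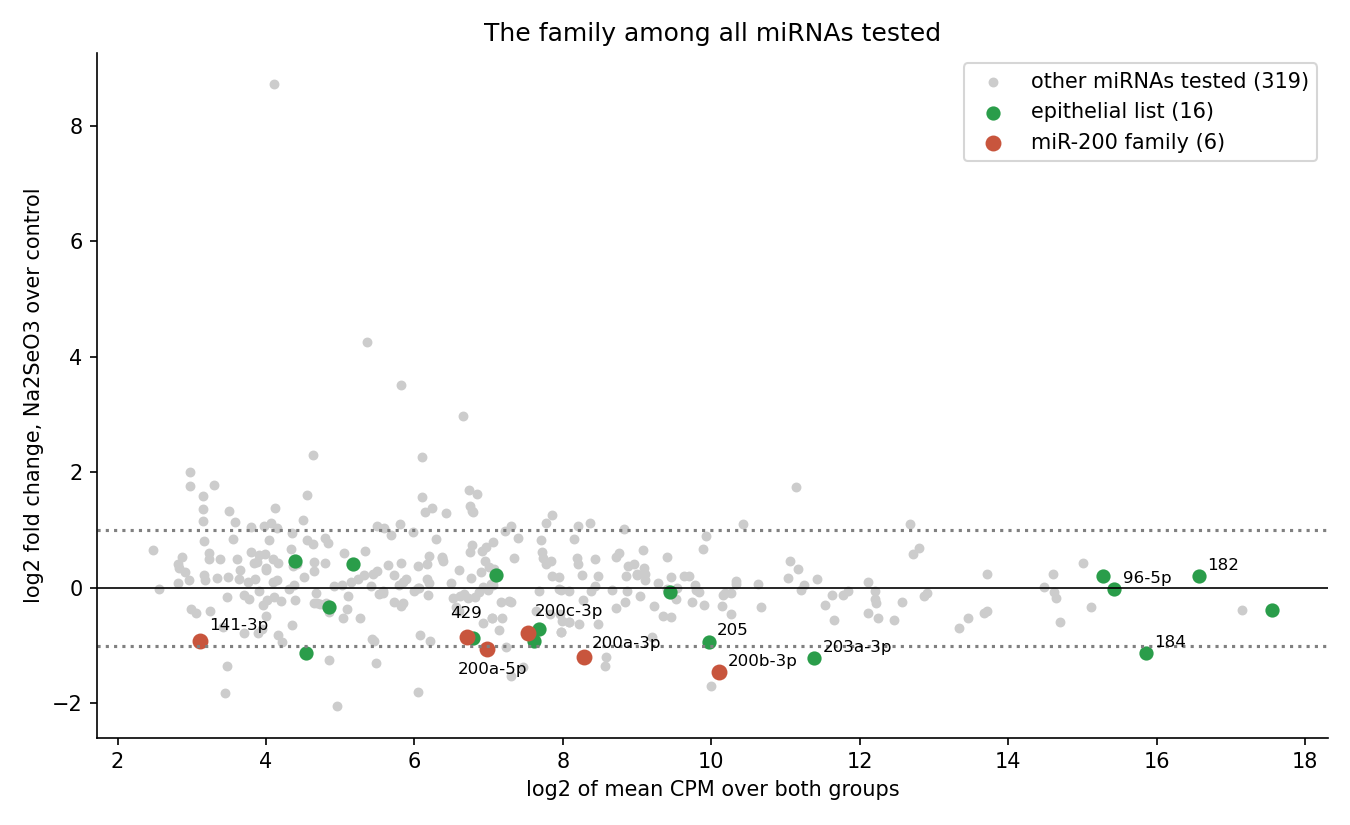
Log2 fold change (Na2SeO3 over control) against the log2 of mean CPM for all 341 miRNAs tested, with 6 family members in red, 16 miRNAs of the epithelial list in green, and the rest in grey; dotted lines mark -1 and 1. The red points lie between -1.45 and -0.78, while the green points run from -1.21 to 0.47.

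Lists of other cell types are given by their counts and sums, beside the 20.8% of all miRNAs tested that passed as higher and the 13.8% that passed as lower. Of 14 muscle names (miR-1, miR-133, miR-206, miR-208, and miR-499), 6 were tested and 4 passed as higher in the Na2SeO3 group, and the summed level was 7264 to 8812 CPM in the control libraries and 13508 to 14614 CPM in the Na2SeO3 libraries. 4 of the 14, the 5p arms of miR-1, miR-133b, miR-208a, and miR-208b, had no count. The muscle miR-499-5p went the other way, from 761 to 540 CPM on average, and did not pass (log2 fold change -0.49, adjusted p = 0.068, edgeR). Nor did miR-133a-5p pass, at 0.59. Of 12 names of retina and neurons, 8 were tested, 3 passed as lower, of which miR-129-1-3p and miR-129-2-3p had identical values, and 1 as higher, with sums of 35899 to 43145 and 41171 to 51498 CPM. Glial names summed to 68.6 to 78.6 and 138 to 153 CPM, with 1 of 3 tested higher. This was miR-219a-2-3p, which went from 4.13 to 78.4 CPM on average and made up the difference in the sum. The glial miR-338-3p went the other way, from 25.0 to 12.4 CPM (log2 fold change -0.93, adjusted p = 0.0519, edgeR). The average of miR-338-5p was 39.7 and 46.9 CPM, and neither arm of miR-338 passed. Erythroid names summed to 254 to 306 and 404 to 518 CPM, with 1 of 3 tested higher, miR-486, from 137 to 300 CPM on average, while miR-451-5p averaged 128 and 133 CPM and miR-451-3p was at 0 in all libraries. Leukocyte names summed to 159 to 198 and 133 to 188 CPM, and 0 of 5 tested passed in edgeR's test. The part of these lists in the lower level of the family was not tested.

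The miRNAs whose pattern was most like that of the family were found by the Pearson correlation of log2 CPM over the 6 libraries with the mean of the 6 members tested, among 320 other rat miRNAs. They were miR-184 (r = 0.991), miR-325-5p, miR-132-3p, miR-148a-5p, and miR-26a-5p, the last at r = 0.976. Their log2 fold changes were -1.13, -0.40, -1.37, -0.92, and -0.33 in that order. The 6 libraries fall into 2 groups that differ in depth, and these values are given as a description.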

How the data were processed

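Small RNA of 6 lens capsular membranes, 3 per group, was sequenced on an Illumina NovaSeq. Reads were trimmed (Cutadapt, Fqtrim) and assigned to miRNAs by miRDeep against the rat genome of Ensembl, and the authors deposited raw counts per miRNA name; HISAT2 is also listed in the submitters' processing notes. Tool versions and the genome build are not given in the sources used here. Total counts per library were 663096 to 2829903.

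Counts were tested with edgeR 4.0.16 (quasi-likelihood test, TMM, filterByExpr at a minimum count of 10), with Benjamini-Hochberg adjustment over 341 miRNAs. Ratios were compared by two-sided exact permutation tests (scipy 1.17.1). Fits relative to a cluster used the reads of the other cluster as library size. DESeq2 1.42.0, limma-voom (limma 3.58.1), other scalings, other filters, and fits without each library were alternatives. Scripts were tested on simulated data. No 2 libraries were alike within sampling noise (chi-square per degree of freedom of at least 28.0). All 9 members were named, with the 5 other miRNAs most correlated with them and miRNAs from lists by cell type. Members and lists were chosen with earlier results of these data known.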

Additional observations from a re-analysis of the deposited data

How the results depend on the processing

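5 members, miR-200b-3p, miR-200a-3p, miR-200a-5p, miR-429, and miR-200c-3p, passed as lower under every whole-library scaling, filter, and test tried and with each library left out. Fits scaled by reads of the family itself, which compare its members with each other, are not included. The number of DEmiRNAs over all miRNAs was 182 with raw reads as the scale, and 1 member was a DEmiRNA with library size only. With raw reads 6 members were DEmiRNAs, among them miR-141-3p at -2.05, which had passed the filter through its control counts. The median of all miRNAs moved to -1.07 with raw reads, and the raw-read values include that shift. A filter of 10 counts in every library removed miR-141-3p. The difference between the groups in the log2 ratio of the seed groups turned to 0.12 with members weighted equally. In that weighting miR-141-3p, with 2 reads in Na2SeO3 library 3, counted as much as the abundant members. The seed groups hold 3p arms alone, so restricting them to 3p arms gives the value reported, and the equal weighting of the clusters used 3p arms only because miR-200c-5p had counts of 0.

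With each library left out in turn, miR-429 relative to the other cluster ranged from -0.21 to 0.045. Relative to miR-200b-3p, miR-429 ranged from 0.43 to 0.74 and miR-200a-5p from 0.19 to 0.65, the last with an adjusted p of 0.0095 in edgeR without Na2SeO3 library 2. Differences between the groups in log2 ratios that changed sign ranged from -0.26 to 0.64 for miR-200c-3p to miR-141-3p, from -0.34 to 0.029 for miR-200a-3p to miR-200a-5p, from -1.01 to 0.28 for miR-141-3p to miR-141-5p, and from -0.20 to 0.037 for miR-429 to miR-200c-3p. The cause of these changes was not tested.

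Libraries share replicate numbers between the groups, but libraries with the same number deviated from their group means with correlations of -0.17, -0.18, and -0.26, so the numbers were not taken as pairs. With the replicate block, 49 miRNAs were DEmiRNAs and 5 members passed, and the ratio of the clusters differed by -0.54 (exact sign-flip test, p = 0.25, the smallest possible). Depth limits miR-141 and the rare 5p arms.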
